A study of Sus scrofa with 9 samples.

Results

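The genes compared here are those of pig blastocysts in 3 libraries headed as water sham against 3 libraries of embryos that were not injected. Of 88800 loci in the deposited gene table, 17065 hold a transcript that matches a known transcript, lies within one or shares a splice junction with one, and these annotated loci are described. Of these, 8523 had a mean of at least 1 FPKM (fragments counted per length of transcript and per depth of library, a relative level) over the 6 libraries and were tested. The series has 9 samples of porcine blastocysts, 3 each titled Uninjected, control siRNA and Sham-water; the control siRNA samples are not analysed here. All carry the labels cell type embryo and strain porcine, and total RNA was taken. No label gives the day of injection or of collection, the number of embryos in a library, or whether each library holds its own pool of embryos. The p-values therefore weigh the spread among these libraries, which may be technical.

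The labels conflict on what the Sham-water samples received. Their titles and the table headings name a water sham, while their siRNA characteristic reads INO80-siRNA; the series' own design text speaks of uninjected embryos and of embryos injected with control or INO80 siRNA, and of no water injection. The remaining FPKM columns of the gene table, not used here, are headed INO80 siRNA, while the remaining samples are titled control siRNA. The Uninjected samples have the siRNA characteristic none, and their titles match the headings. The groups are therefore called by title and heading, Sham-water and Uninjected. What is compared is the effect of injection if the titles hold, and of injection with INO80 siRNA if the characteristic holds.

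A sham injection puts a needle through the outer membrane of an egg or embryo and delivers liquid with no active agent, so that the handling itself can be told from the agent. A cell whose membrane is pierced takes up calcium and reseals with the help of annexins, calpains and the ESCRT machinery, and injury or culture stress is known to induce immediate early genes, chaperones and the unfolded protein response in many cells. A blastocyst consists of trophectoderm, an outer epithelium sealed by tight junctions that pumps fluid inwards, and of the epiblast and primitive endoderm inside it.

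The libraries were of similar depth, at 4.57 to 4.82 Gb of aligned sequence in the Uninjected and 4.72 to 5.57 Gb in the Sham-water group, as the ratio of coverage to FPKM gives it. Markers of the tissue label ranged from high to scarcely detected. KRT8, a keratin of simple epithelia, measured 1170 to 2470 FPKM in the Uninjected and 1510 to 4310 FPKM in the Sham-water libraries. POU5F1, a pluripotency factor, measured 53.9 to 91.4 and 55.9 to 126 FPKM. Over the 6 libraries, CDX2 of the trophectoderm measured 0.0643 to 1.61 FPKM and SOX2 of the epiblast 0 to 1.36 FPKM. GATA6 of the primitive endoderm was present at 10.8 to 25.1 FPKM, while SOX17 was listed at 0 in 4 libraries and reached 0.306 FPKM at most. NANOG was not matched to an annotated locus here. Across annotated loci, which are not independent replicates, the correlation of log2(FPKM + 1) was on average 0.898 among Uninjected, 0.896 among Sham-water and 0.896 between groups. Sham-water library 1 correlated at 0.928 with Uninjected libraries 1 and 3, and at 0.896 and 0.903 with Sham-water libraries 2 and 3. On the leading principal component, with 28.3% of the variance, it scored -17.2 among the Uninjected libraries (-29.5 to -11.3), away from Sham-water libraries 2 and 3 (30.2 and 50.5). Counts of calls are therefore also given without it.

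Annotated transcripts took 67.7%, 61.0% and 74.6% of the signal (transcript FPKM times length) in Uninjected libraries 1 to 3 and 82.1%, 65.6% and 86.1% in Sham-water libraries 1 to 3. Sham-water libraries 1 and 3 lay above the Uninjected range and library 2 within it (two-sided exact p = 0.3 by permutation, where groups of 3 libraries cannot go below 0.1). Transcripts outside annotated genes took 17.4%, 21.6% and 13.7%, and then 9.83%, 18.5% and 7.84% (exact p = 0.3). Because FPKM divides by the total of a library, these shares move with the level of each annotated gene, and their part in the results below was not tested. An exact 0 in the table need not mean absence: 27 of 2558 annotated loci with at least 20 FPKM in some library were listed at 0 in another. The ribosomal protein gene RPL37A is such a locus, at 0, 197 and 0 FPKM in Uninjected libraries 1 to 3 and at 257, 203 and 288 FPKM in the Sham-water libraries.

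**Figure D1:**
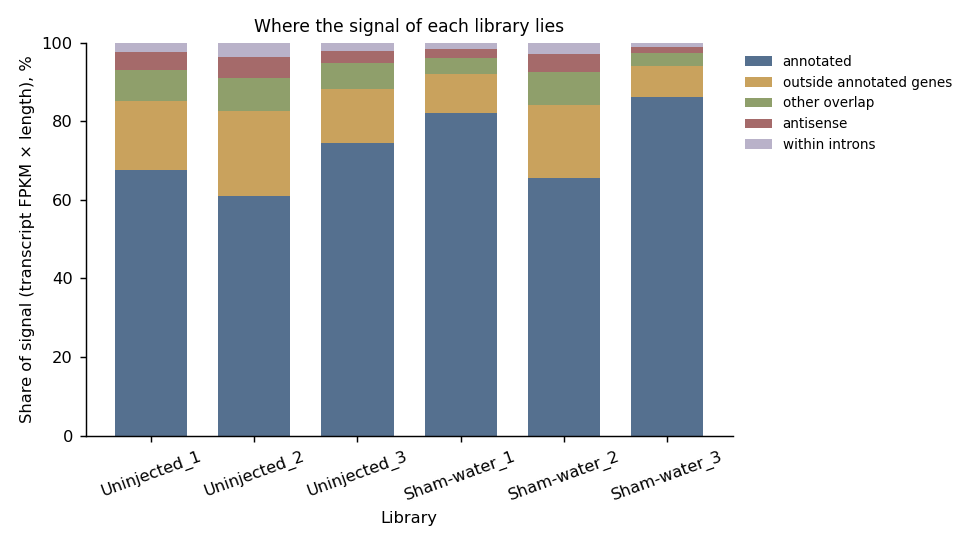
Share of signal (transcript FPKM times length, in percent) by position of the transcript relative to known genes, stacked for each of the 6 libraries. Annotated transcripts take 82.1% and 86.1% in Sham-water libraries 1 and 3 and 61.0% to 74.6% in the other 4 libraries shown.

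INO80, the ATPase of the chromatin remodelling complex that the siRNA of the study was made against, was examined first because of the label conflict. It lies on chromosome 1 from 145362748 to 145504969 (positions as in the table, for which no pig build is named) with transcripts of up to 36 exons. INO80 measured 0.737, 1.09 and 1.92 FPKM in Uninjected libraries 1 to 3 and 1.72, 0.716 and 1.9 FPKM in Sham-water libraries 1 to 3. The groups overlapped fully (two-sided exact permutation p = 1.0). The log2 fold change, Sham-water minus Uninjected on the log2(FPKM + 1) scale as throughout, was 0.12 with a 95% interval of -0.78 to 1.01 (SE 0.407, limma adjusted p = 0.981). Each library held 22.1 to 63.0 kb of aligned sequence at the locus. With a pseudocount of 0.1 the interval ran from -1.35 to 1.72, so these libraries do not tell the readings of the labels apart.

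Of the genes of the INO80 complex, 12 were tested, INO80 included, and 0 were called (0.0% of annotated loci were). INO80C, a subunit, had lower values in each Sham-water library, at 14.9, 24.9 and 15.8 FPKM against 12.8, 6.96 and 9.26 FPKM (log2 fold change -0.87, limma adjusted p = 0.864). ACTL6A, an actin-related subunit, had higher ones only narrowly, at 14.6, 14.1 and 9.31 FPKM against 17.5, 14.6 and 22.4 FPKM, with an interval of -0.31 to 1.29. Its highest Uninjected and lowest Sham-water values were equal as printed. Thus 1 of the 12 genes had all Sham-water libraries higher and 1 all lower, where 8.49% and 2.41% of annotated loci did.

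Over all annotated loci, no gene passed the test between Sham-water and Uninjected embryos. Of 8523 annotated loci 0 were called (0.0%) at a limma adjusted p under 0.05, and the lowest adjusted p was 0.334. Before adjustment, 391 loci (4.59%) were higher and 78 (0.915%) lower at p under 0.05, together 469 where 426 would be expected with no difference. The Sham-water libraries lay above each Uninjected library at 724 loci (8.49%) and below each at 205 (2.41%). The excess of higher values depended on the scaling: with libraries scaled to the same median the counts at an unadjusted p under 0.05 were 231 higher and 157 lower, and with quantile normalization 246 and 190. Over all 51315 loci of the table that passed the same filter, unannotated ones included, 0 were called (0.0%) and the lean was the opposite, with 269 (0.524%) higher and 2065 (4.02%) lower. Annotated loci had a median log2 fold change of 0.16 and the full set one of -0.35, and list medians below are read against 0.16.

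The data bound the size of a difference on the log2(FPKM + 1) scale for many genes. At low levels the added 1 shrinks a fold change, so the bounds there are looser in FPKM. The median standard deviation between libraries of a group was 0.45 in the Uninjected and 0.46 in the Sham-water group on the log2(FPKM + 1) scale, while the median absolute log2 fold change was 0.33. The 95% interval lay within a log2 fold change of -2 to 2 at 89.1% of annotated loci and within -1 to 1 at 16.0%. Loci of at least 100 FPKM were measured more tightly, with 31.8% of 554 within -1 to 1, than the 13.0% of 4212 loci at 1 to 5 FPKM. A log2 fold change above 1 was measured at 447 loci and one below -1 at 119.

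Leaving out libraries singly gave few calls. Without Sham-water library 1, 2 loci passed, NLN and MRPS34, both lower, while before adjustment 578 loci had p under 0.05 with higher and 208 with lower values. NLN, the oligopeptidase neurolysin, measured 92.7, 46.3 and 101 FPKM in Uninjected libraries 1 to 3 and 76.7, 3.51 and 4.15 FPKM in Sham-water libraries 1 to 3. Its level in Sham-water library 1 thus lay within the Uninjected range, and its adjusted p was 0.864 with all libraries and 0.0312 without that library. Without Uninjected library 2, 6 loci passed, among them RPL37A, whose 0 values are described above. These loci were named after their values were seen. Without Sham-water library 2 or 3, 1 locus passed each time, and without Uninjected library 1 or 3, 0.

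**Figure D2:**
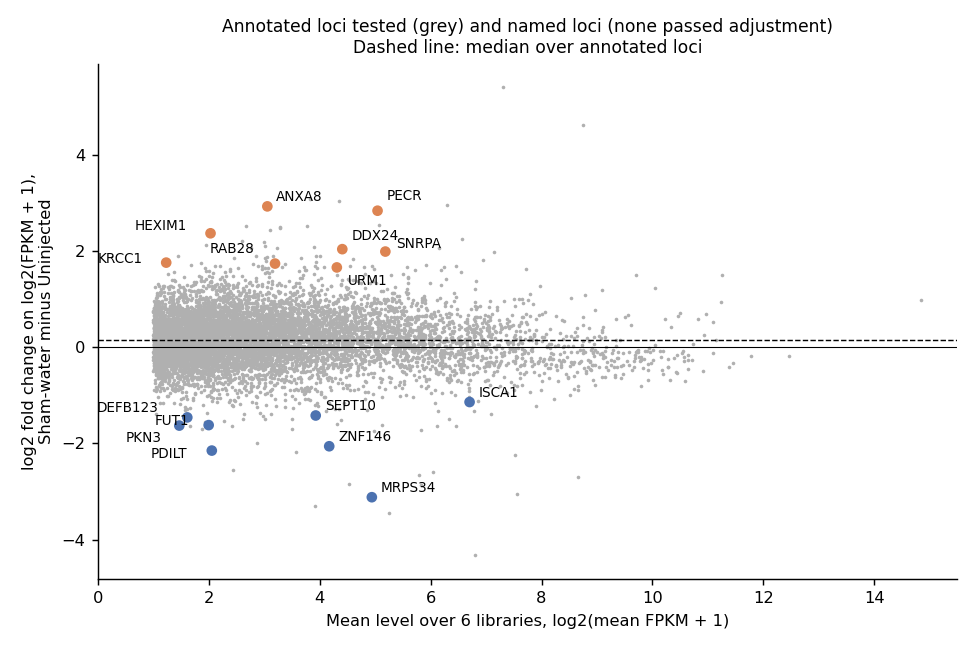
Log2 fold change (Sham-water minus Uninjected, on log2(FPKM + 1)) against mean level over the 6 libraries for 8523 annotated loci; coloured points are the 8 named loci in each direction, the solid line is 0 and the dashed line the median over annotated loci, 0.16. None of the coloured loci passed the adjusted test, and MRPS34, at -3.12, is the lowest of them.

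The annotated genes with recognised symbols and the smallest p in each direction, among those whose groups did not overlap, were named by rule. They are ranked by the comparison itself and did not pass it, so they are described and support nothing. DDX24, a DEAD-box RNA helicase on chromosome 7 (122186509 to 122211369, up to 10 exons), measured 8.01, 8.54 and 5.49 FPKM in Uninjected libraries 1 to 3 and 27.9, 38.7 and 32.7 FPKM in Sham-water libraries 1 to 3 (log2 fold change 2.04, SE 0.355, limma adjusted p = 0.334). HEXIM1, an inhibitor of the elongation kinase P-TEFb on chromosome 12 (18516119 to 18517165, 1 exon), was at 0.806, 0 and 0.143 FPKM and then at 4.52, 8.84 and 4.22 FPKM. The lowest Sham-water library of each gene stood above its highest Uninjected library, and HEXIM1 was highest in Sham-water library 2.

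ANXA8, an annexin that binds membrane lipids in the presence of calcium (chromosome 14, 95804037 to 95822477), measured 0.624, 1.48 and 0.0564 FPKM against 4.04, 23.6 and 14.1 FPKM (log2 fold change 2.93, SE 0.588, limma adjusted p = 0.743). SNRPA, the A protein of the U1 splicing particle, measured 8.52, 18.4 and 14 FPKM against 71.5, 35.3 and 64.4 FPKM. Its lowest Sham-water library, library 2, was still above its highest Uninjected library. URM1, a ubiquitin-like protein used in tRNA thiolation, measured 7.31, 12.1 and 6.72 FPKM against 32.2, 27.9 and 26.7 FPKM. PECR, a peroxisomal enoyl-CoA reductase, measured 4.91, 17.3 and 2.63 FPKM against 32.1, 49.9 and 85.0 FPKM. PECR was the gene of these with the widest spread among Uninjected libraries, and it was called without Uninjected library 2 (limma adjusted p = 0.0408). The small GTPase RAB28 measured 4.38, 1.74 and 3.91 FPKM against 11.8, 13.4 and 13.7 FPKM, and KRCC1 0, 0.0503 and 0.0971 FPKM against 1.59, 3.42 and 2.94 FPKM.

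In the other direction, MRPS34, a protein of the small mitochondrial ribosomal subunit (chromosome 3, 41657954 to 41659299, up to 3 exons), had the smallest p of all annotated loci. It measured 57.8, 64.3 and 37.6 FPKM in Uninjected libraries 1 to 3 and 11.9, 4.25 and 2.35 FPKM in Sham-water libraries 1 to 3 (log2 fold change -3.12, 95% interval -4.21 to -2.03, limma adjusted p = 0.334, and 0.0312 without Sham-water library 1). ZNF146, a zinc finger protein on chromosome 6 (41000432 to 41023691), measured 30.9, 27.7 and 25.6 FPKM against 6.58, 6.18 and 5.17 FPKM, with an SE of 0.341 on a log2 fold change of -2.06. Its 3 libraries lay close together in each group. ISCA1, which helps to assemble iron-sulfur clusters in mitochondria, measured 105, 167 and 157 FPKM against 69.3, 53.6 and 67.1 FPKM. The septin SEPT10 measured 14.9, 29.3 and 19.0 FPKM against 10.9, 4.36 and 6.88 FPKM.

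The other 4 genes with lower values were scarcely detected in the Sham-water libraries. PDILT, known in mammals as a protein disulfide isomerase-like protein of the testis, measured 9.59, 6.18 and 1.95 FPKM against 0.44, 0.764 and 0 FPKM. FUT1, a fucosyltransferase, measured 3.93, 4.35 and 6.8 FPKM against 1.57, 0.66 and 0.658 FPKM. PKN3, a protein kinase of the PKN family, measured 1.55, 5.87 and 2.39 FPKM against 0.374, 0.194 and 0.225 FPKM, and the beta-defensin DEFB123 2.38, 5.32 and 2.83 FPKM against 0.222, 0.739 and 0.857 FPKM. Adjusted limma p-values of these 4 genes were 0.775 to 0.864.

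**Figure D3:**
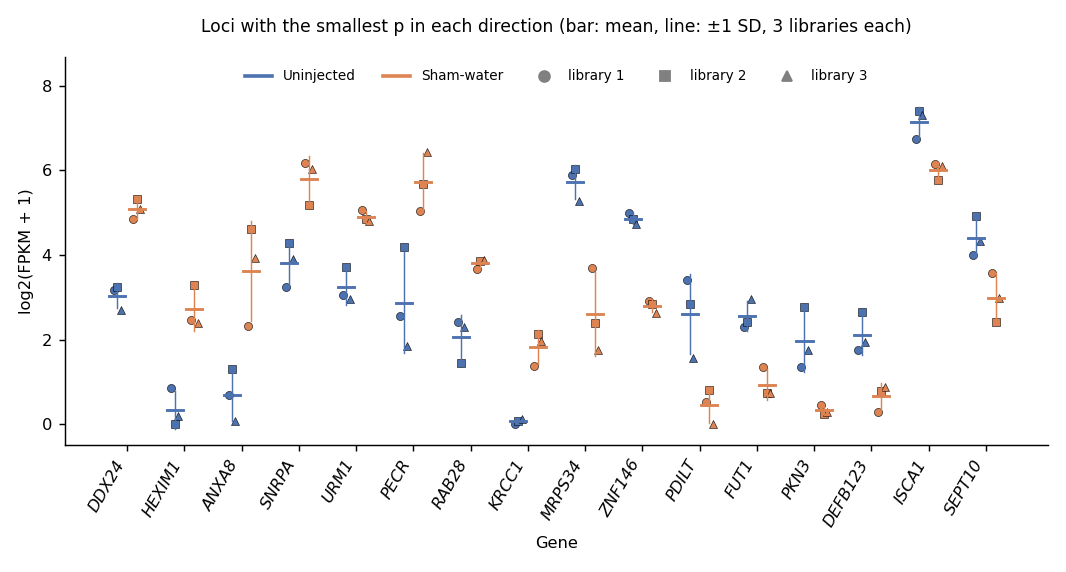
Level, log2(FPKM + 1), of the 16 named loci in each library, Uninjected blue and Sham-water orange, with symbols for library numbers, a bar for the mean and a line for 1 SD on either side. DDX24 and ZNF146 show groups set apart by more than their spread, while ANXA8 runs from 4.04 to 23.6 FPKM within the Sham-water group.

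Genes of a response to injury were examined as lists, and none of their members was called (0 of 8523 annotated loci were). In whole embryos, fewer cells of a type and less RNA per cell cannot be told apart. Of 19 tested genes of plasma membrane repair, 16 had a positive log2 fold change, where 63.0% of annotated loci did, and 4 had Sham-water libraries all above the Uninjected ones, where 8.49% of annotated loci did. The 4 were ANXA1, ANXA4, ANXA5 and MYOF. ANXA1, an annexin also known as an anti-inflammatory protein, measured 27.9, 91.0 and 41.1 FPKM in Uninjected libraries 1 to 3 and 141, 330 and 104 FPKM in Sham-water libraries 1 to 3 (log2 fold change 1.82, SE 0.53, limma adjusted p = 0.864). ANXA4 measured 30.9, 41.4 and 30.3 FPKM against 74.8, 68.7 and 53.9 FPKM, and ANXA5 7.06, 11.6 and 10.7 FPKM against 14.4, 24.2 and 16.6 FPKM. MYOF, a ferlin involved in membrane fusion, measured 5.22, 3.39 and 5.75 FPKM against 6.97, 6.47 and 6.76 FPKM. The other annexins of the list, ANXA2, ANXA6 and ANXA7, had overlapping groups, with log2 fold changes of 0.67, 0.76 and 0.91. ANXA6 measured 12.5, 8.06 and 12.3 FPKM against 40.8, 3.34 and 42.6 FPKM, with Sham-water library 2 below each Uninjected library. The ESCRT genes of the list varied in sign, with overlapping groups: log2 fold changes were -0.89 for CHMP6 and -0.75 for CHMP4B, and 0.22 for CHMP3, 0.28 for VPS4A, 0.49 for VPS4B and 0.82 for PDCD6IP. The list median was 0.49, and 0.29 with libraries scaled to the same median.

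Several immediate early genes were high in Sham-water library 2, and JUN was not among them. FOS, a transcription factor induced within minutes by many stimuli, measured 4.29, 17.2 and 25.1 FPKM in Uninjected libraries 1 to 3 and 7.51, 127 and 15.1 FPKM in Sham-water libraries 1 to 3. ATF3, a stress-induced factor, measured 2.18, 8.49 and 4.53 FPKM against 4.82, 51.3 and 12.2 FPKM. The phosphatase DUSP1 measured 8.81, 21.9 and 10.2 FPKM against 9.89, 52.5 and 36.4 FPKM, and ZFP36, which destabilises mRNAs of inflammation, 3.93, 9.86 and 7.0 FPKM against 8.77, 27.1 and 14.8 FPKM. In each of these 4 genes library 2 was the highest Sham-water library, and the groups overlapped. Uninjected library 2 was likewise the highest of its group for ATF3, DUSP1 and ZFP36, but not for FOS. JUN, the partner of FOS, measured 1.63, 1.68 and 2.15 FPKM against 4.86, 1.48 and 0 FPKM. Summed over the annotated genes of the list, the level was 36.7, 88.5 and 62.8 FPKM and then 46.9, 328 and 101 FPKM. Of 11 tested genes 0 were called, and the median of 0.8 ranged from 0.05 to 1.48 when single libraries were left out.

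Genes of chaperones, the unfolded protein response and antioxidant defence gave values that overlapped between the groups. Of 13 heat shock genes and chaperones, 15 genes of the unfolded protein response and amino acid stress and 18 antioxidant genes, 0 were called and 0 had groups that did not overlap, where 8.49% of annotated loci had all Sham-water libraries higher and 2.41% all lower. HSPA5, the main chaperone of the endoplasmic reticulum, measured 45.1, 113 and 53.5 FPKM against 114, 109 and 95.5 FPKM. Uninjected library 2 was thus at the level of the Sham-water libraries. ATF4, the factor that drives the amino acid response, measured 24.9, 23.0 and 64.3 FPKM against 113, 37.0 and 78.3 FPKM, and its target CHAC1, which degrades glutathione, 2.74, 5.26 and 27.6 FPKM against 40.8, 2.14 and 12.7 FPKM. The mitochondrial chaperonin subunit HSPE1 measured 1790, 1880 and 1240 FPKM against 1470, 806 and 1160 FPKM. No annotated locus was found here under the names HSPA1A, DDIT3, CDKN1A and HMOX1. Of 12 apoptosis and p53 genes 0 were called: BID, which links death receptors to mitochondria, measured 29.6, 16.6 and 19.8 FPKM against 42.2, 27.2 and 72.8 FPKM, and BAX, which permeabilises mitochondria, 4.56, 2.95 and 2.02 FPKM against 2.18, 1.97 and 0.335 FPKM. FAS, a death receptor, was the 1 gene of the 12 whose groups did not overlap, at 22.0, 21.4 and 18.8 FPKM against 15.7, 15.1 and 14.3 FPKM (log2 fold change -0.44, 95% interval -1.16 to 0.29, limma adjusted p = 0.876). Of 8 interferon response genes 0 were called, and MX1 and IFIT1 lay below the filter, at 0.585 FPKM or less in each library.

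**Figure D4:**
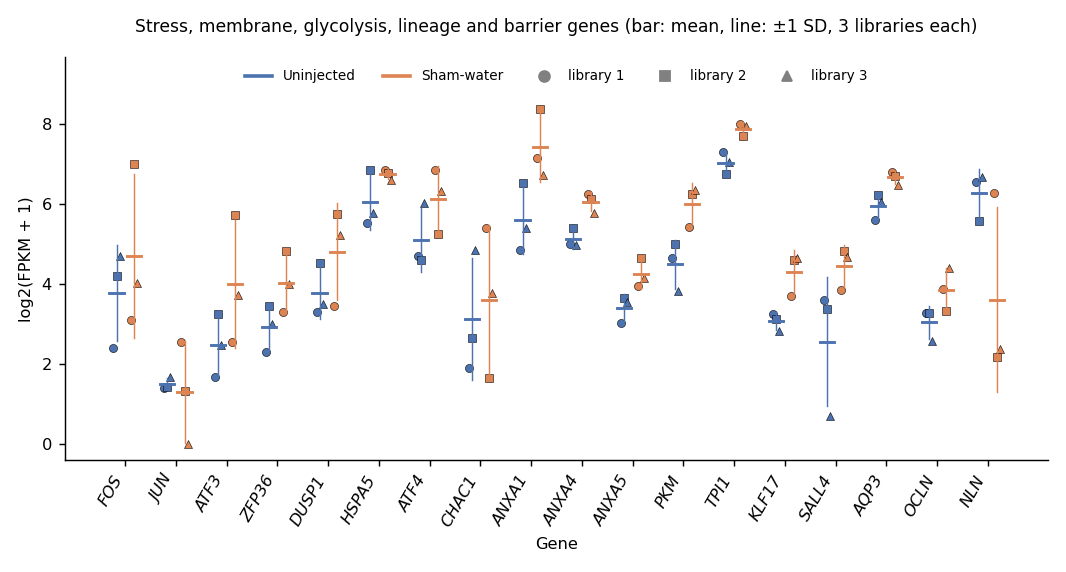
Level, log2(FPKM + 1), of genes of stress, membrane repair, glycolysis, lineages and barrier in each library, Uninjected blue and Sham-water orange, with a bar for the mean and a line for 1 SD on either side. FOS and ATF3 stand high in Sham-water library 2 (127 and 51.3 FPKM), and ANXA1, ANXA4 and ANXA5 in all 3 Sham-water libraries. Other annexins are not shown. NLN is at 76.7 FPKM in Sham-water library 1 but at 3.51 and 4.15 FPKM in the others.

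The lineages of the blastocyst were measured with 13 trophectoderm, 10 epiblast and pluripotency and 7 primitive endoderm genes, of which 0 were called. TEAD4, the factor that starts the trophectoderm programme in mice, measured 10.8, 8.11 and 12.9 FPKM in Uninjected libraries 1 to 3 and 19.9, 13.3 and 24.3 FPKM in Sham-water libraries 1 to 3 (log2 fold change 0.78, limma adjusted p = 0.864). ELF5, also a trophoblast factor in mice, measured 0.292, 0.401 and 1.03 FPKM against 2.04, 3.7 and 1.26 FPKM. Both lay above the Uninjected range in each Sham-water library, as did 3 of the 13 trophectoderm genes in all. Over annotated loci, 8.49% had all Sham-water libraries higher. TFAP2C, a further trophoblast factor, varied widely and overlapped between groups, at 6.37, 36.6 and 47.6 FPKM against 12.8, 3.99 and 6.15 FPKM. GATA3 measured 14.7, 13.7 and 33.2 FPKM against 26.1, 15.6 and 39.0 FPKM, and KRT18, whose locus carries a further gene ID, 2060, 1690 and 5950 FPKM against 3910, 1550 and 1710 FPKM.

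The 10 pluripotency genes had a median log2 fold change of 0.14, beside 0.16 over annotated loci, and 5 of them lay above the latter. The highest were SALL4 and KLF17, the 2 genes of the list whose groups did not overlap. Over annotated loci, 8.49% had all Sham-water libraries higher and 2.41% all lower. KLF17, a factor of the human epiblast, measured 8.52, 7.69 and 6.04 FPKM against 11.9, 23.1 and 23.9 FPKM (log2 fold change 1.25, SE 0.392, limma adjusted p = 0.864). SALL4 measured 11, 9.35 and 0.611 FPKM against 13.3, 27.0 and 24.5 FPKM, with Uninjected library 3 far below the other libraries. Without that library its log2 fold change was 0.96, against 1.89 with all. TDGF1, a co-receptor of Nodal, and LIN28A, an RNA-binding protein, had negative log2 fold changes of -0.33 and -0.35, with overlapping groups. POU5F1 had a log2 fold change of 0.19 with an interval of -0.68 to 1.05, and that of GATA6 was -0.02 with an interval of -0.92 to 0.88. The laminin chain LAMB1, made by primitive endoderm, measured 2.36, 3.73 and 3.64 FPKM against 4.4, 6.28 and 8.28 FPKM. SOX2 and CDX2 lay below the filter.

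Barrier and fluid transport genes included 19 tested genes of tight and adherens junctions and 8 of ion and water transport, with 0 calls. AQP3, a water and glycerol channel, measured 47.7, 72.9 and 64.8 FPKM in Uninjected libraries 1 to 3 and 111, 102 and 88.3 FPKM in Sham-water libraries 1 to 3 (log2 fold change 0.7, 95% interval -0.01 to 1.42, limma adjusted p = 0.864). OCLN, the tight junction protein occludin, measured 8.64, 8.68 and 4.89 FPKM against 13.5, 8.89 and 20 FPKM, and MARVELD2, which seals the corners where 3 cells meet, 1.13, 4.31 and 5.34 FPKM against 8.0, 7.76 and 6.66 FPKM. These 3 genes were above the Uninjected range in each Sham-water library, OCLN narrowly in library 2. Such groups were found for 3 of the 19 junction and 1 of the 8 transport genes, where 8.49% of annotated loci had them. The claudin CLDN7 measured 75.7, 62.9 and 217 FPKM against 252, 170 and 179 FPKM, so the groups overlapped through Uninjected library 3. CLDN4 was listed at 0 in 5 libraries and at 464 FPKM in Sham-water library 2. ATP1B1, a beta subunit of the sodium pump, measured 5.48, 3.15 and 0.0646 FPKM against 0.451, 7.43 and 2.24 FPKM. The medians were 0.47 for junction and 0.14 for transport genes, and the latter turned to -0.01 with libraries scaled to the same median.

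Genes of metabolism were measured with 13 glycolysis, 21 oxidative phosphorylation, 13 lipid droplet and sterol and 20 lysosome genes, with 0 calls. PKM, the pyruvate kinase that ends glycolysis, measured 23.8, 31.0 and 13.1 FPKM in Uninjected libraries 1 to 3 and 41.6, 74.4 and 80.7 FPKM in Sham-water libraries 1 to 3 (log2 fold change 1.52, SE 0.416, limma adjusted p = 0.864). TPI1, a glycolytic isomerase, measured 156, 106 and 131 FPKM against 255, 206 and 244 FPKM. Both genes were higher in each Sham-water library. In all, 3 of the 13 glycolysis genes had such groups without overlap, where 8.49% of annotated loci did. PGK1, a kinase of the same pathway, instead measured 75.4, 57.7 and 52.5 FPKM against 102, 46.8 and 74.0 FPKM. The lactate dehydrogenase gene LDHB, whose locus of that name here has 1 exon, was listed at 0 in Sham-water library 2 and at 306 to 609 FPKM in the others. ATP5B, the catalytic subunit of ATP synthase, measured 1150, 857 and 1260 FPKM against 1790, 1330 and 2270 FPKM, while the median of its list was -0.05.

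Of the genes of growth and chromatin, 15 cell cycle, 14 DNA repair, 15 histone and chromatin, 9 small RNA and 18 cytoskeleton genes were tested, with 0 calls. All 15 cell cycle genes had a positive log2 fold change, where 63.0% of annotated loci did. Their median was 0.61 and ranged from 0.35 to 0.91 when single libraries were left out. With libraries scaled to the same median, 13 of the 15 were positive and their median was 0.44. With quantile normalization, 12 were positive and their median was 0.41. The median over annotated loci was -0.01 with either scaling. MCM4, of the replicative helicase, measured 9.44, 7.85 and 5.72 FPKM against 11.7, 13.2 and 19.9 FPKM, and CCNA2, cyclin A, 6.64, 12 and 19.9 FPKM against 32.3, 14.9 and 33.7 FPKM. MCM4 was the 1 gene of 15 whose groups did not overlap, and over annotated loci that share was 8.49% for higher values, so this count does not set the list apart. ACTG1, cytoplasmic gamma actin, measured 630, 489 and 636 FPKM against 937, 1090 and 2520 FPKM, whereas ACTB, beta actin, measured 1000, 1470 and 2020 FPKM against 2230, 709 and 1610 FPKM. Actins share much sequence, and whether reads were split between them was not tested.

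**Figure D5:**
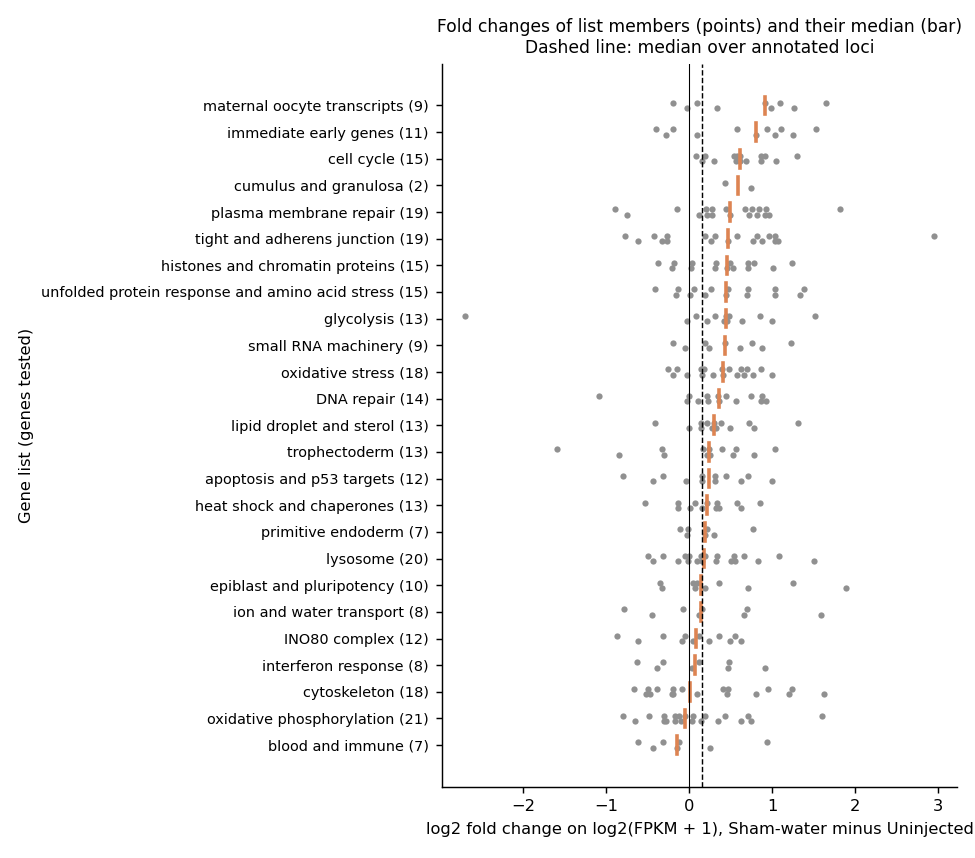
Log2 fold change (Sham-water minus Uninjected) of the tested members of 25 gene lists as points, with the list median as a bar, the number tested in brackets, the solid line at 0 and the dashed line at the median over annotated loci, 0.16. List medians run from -0.15 (blood and immune, 7 genes) to 0.91 (maternal oocyte transcripts, 9 genes), and 0 of the points are called genes.

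Maternal oocyte transcripts had the highest list median, 0.91, from 9 tested genes that mostly measured a few FPKM. MOS, the kinase that arrests the egg in meiosis, measured 0.133, 3.04 and 3.15 FPKM in Uninjected libraries 1 to 3 and 1.0, 27.2 and 9.5 FPKM in Sham-water libraries 1 to 3, and the egg coat gene ZP2 0.368, 0.255 and 0.654 FPKM against 0.647, 7.61 and 1.75 FPKM. For both genes Sham-water library 2 was the highest. UCHL1, a ubiquitin hydrolase abundant in oocytes, was instead highest in Sham-water library 3, at 2.52, 5.74 and 1.98 FPKM against 1.65, 4.45 and 46.7 FPKM. The list median ranged from -0.02 to 0.86 when single libraries were left out. ZP2, with a mean of 0.426 FPKM in the Uninjected and 3.34 FPKM in the Sham-water group, passed the filter through its Sham-water values. Of the 15 annotated genes of this list, those not tested lay below the filter. The part of the filter in the list median was not tested. Markers of cells that could accompany an embryo varied in level. The granulosa genes PTX3 and TNFAIP6 were at or near 0 in each library, CYP19A1 reached 0.598 FPKM at most, and FST and SERPINE2, which embryos also express, measured 4.73 to 81.6 and 14.1 to 45.6 FPKM. Summed over the 6 annotated cumulus and granulosa markers, the level was 18.9 to 95.0 FPKM in the Uninjected and 26.2 to 127 FPKM in the Sham-water group, FST and SERPINE2 giving nearly all of it. The part of such cells in the results was not tested. Of the blood and immune markers, LYZ was the highest, at 0.651 to 6.81 FPKM in the Uninjected and 0.68 to 7.97 FPKM in the Sham-water group, PTPRC was at most 0.0468 FPKM and HBB measured 0.152, 1.03 and 0.0651 FPKM against 6.73, 0 and 1.28 FPKM, the sum over 5 annotated markers being 2.27 to 13.3 and 3.61 to 11.6 FPKM.

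Among annotated transcripts taken singly, 1 of 14309 (0.00699%) was called, a splice form of ENSSSCG00000028369, for which the tables used give no symbol. Before adjustment, 541 transcripts (3.78%) were higher and 211 (1.47%) lower at p under 0.05. The transcript, MSTRG.66669.3 on chromosome 6 (49641408 to 49643912, 6 exons, 554 bases), had 99.9, 401 and 453 FPKM in Sham-water libraries 1 to 3, whereas each Uninjected library listed it at 0 (limma adjusted p = 0.0103). The whole locus did not differ in this way, at 374, 262 and 328 FPKM against 315, 232 and 263 FPKM (log2 fold change -0.25, limma adjusted p = 0.931). Its other splice forms carried the signal in the Uninjected libraries. MSTRG.66669.1 was at 509, 353 and near 0 FPKM, and MSTRG.66669.4 at 0.111, 9.89 and 426 FPKM. The reference form of the locus was at 478 FPKM in Sham-water library 1. Which form was assigned the reads thus varied within the Uninjected group as well. The call was lost without Uninjected library 3, with the replicate block, with quantile normalization and with no filter.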

How the data were processed

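The deposited tables give FPKM per locus and, per transcript, FPKM and read coverage, as per the file headers. The authors' submitted processing notes name fastp, HISAT2 and StringTie without settings, and the human build GRCh38.p10; no pig build or strand setting is named in those sources, so antisense genes cannot be told from their partners. The last transcript of chromosome 1 ends at 315248247, beyond the last RefSeq gene end of 274280750 in Sscrofa11.1, so reference tables were used for names only, and 2230 of 7176 Ensembl IDs gained a symbol. In all, 9 per-sample columns were not used.

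Loci with a class code of 0, j or c were kept, log2(FPKM + 1) was taken, and loci averaging 1 FPKM or more over the 6 libraries, a filter that does not use the groups, were fitted in limma 3.58.1 (R 4.3.3) with trend and robust moderation and Benjamini-Hochberg adjustment. Depth came from the ratio of coverage to FPKM. The test was tested on simulated data of 8523 loci for this comparison: it called 2% of genes with an absolute log2 fold change of 1, 52% at 2, 94% at 4 and 100% at 6. In it 50 loci were changed by each amount in normal noise, and 8 unchanged loci were called. The adjustment depends on how many loci change, so these shares need not hold for the real data. There, 39 loci measured an absolute log2 fold change above 2. The 8 loci named in each direction had recognised symbols, groups that did not overlap and the smallest p; INO80 and up to 3 members of each gene list were also named. The members and lists were chosen with earlier results of these data known. Other genes were named after their values were seen. Alternatives covered the filter, pseudocount, scaling, moderation, weights, replicate block and libraries left out singly. Python 3.11.15 was used for summaries.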

Additional observations from a re-analysis of the deposited data

Results flagged for a closer look

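Mitochondrially encoded transcripts, which enter no comparison of annotated loci, took 2.22% of the signal in Sham-water library 3, above the highest Uninjected library at 1.2%. The other Sham-water libraries had 0.0678% and 0.823%, and the groups overlapped (two-sided exact permutation p = 0.6).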

How the results depend on the processing

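Leaving out single libraries gave 0 to 6 called loci, 0 to 5 of them higher and 0 to 2 lower, 162 to 578 higher and 63 to 208 lower loci at an unadjusted p under 0.05, and 0 to 11 called transcripts. A minimum mean of 5 FPKM gave 222 higher and 40 lower loci at that p, quantile normalization 246 and 190, scaling to the median library 231 and 157, array weights 127 lower and all loci 2065 lower. The median log2 fold change was -0.01 with either scaling and -0.35 over all loci. Called transcripts numbered 4 with a pseudocount of 0.1, and 0 with no filter, with quantile normalization and with the replicate block. Correlations of deviations were 0.054, 0.203 and 0.042 between libraries of the same number and -0.147 to 0.095 between those of different numbers. Whether the numbers pair the libraries was not tested. With the replicate block 0 loci were called. At an unadjusted limma p under 0.05 the block gave 476 higher and 111 lower loci, against 391 and 78 without it.

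Of 78 named genes 63 kept their sign in the settings run. Under quantile normalization INO80 was at -0.06 and ATP1B1 was at -0.0048, with array weights ATP1B1 was at -0.03, and scaled to the median library POU5F1 was at -0.01. With single libraries left out, values ran from -0.43 to 0.4 for ACTB, -0.6 to 0.77 for ATP1B1, -0.42 to 1.45 for CHAC1, -0.21 to 1.74 for FOS, -0.22 to 1.6 for FST, -0.32 to 0.26 for GATA6, -0.05 to 0.36 for INO80, -0.84 to 0.44 for JUN, -0.75 to 0.23 for KRT18, -0.16 to 0.42 for POU5F1, -0.12 to 1.96 for UCHL1, -0.05 to 0.5 for PGK1, -0.85 to 0.38 for LYZ, -4.31 to 0.32 for LDHB and 0.0 to 4.43 for CLDN4. The cause was not tested. At 3 libraries a group, the simulated test called few differences of a log2 fold change of 1.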
